A study of Rattus norvegicus with 24 samples.

Results

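The transcripts of 8 subunit genes of the GABA-A receptor (Gabra2, Gabra3, Gabra4, Gabra5, Gabra6, Gabrb1, Gabrb2 and Gabrd) were followed in 6 brain regions of rats given MK-801, a blocker of the NMDA receptor channel. The genes were taken by name, 7 through the gene name printed in the array files and Gabra2 through its gene ID, since its probe carries the placeholder name LOC289606. They are 8 of 35495 names on the array, each name counted as 1 gene, and each member was read by 1 of the 41012 probes. Of all probes, 19718 kept the name in the array files because no gene symbol was matched. The comparisons ask how the level of each subunit transcript differs between regions, and whether it differs from saline after either dose.

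The rats were male Wistar animals, 9 weeks old according to the sample labels and 10 weeks old according to the design text, 9 in all and 3 of them given saline. Treated rats received an intraperitoneal injection of MK-801 at 0.08 mg/kg, called the low dose, or at 0.16 mg/kg, called the high dose, and brains were removed 40 min after injection. Cerebral cortex, hippocampus, amygdala, ventral striatum, hypothalamus and midbrain were dissected. On each of the 24 arrays, RNA of treated rats and RNA of saline rats from 1 region were hybridised together in different dyes. The array titles also put the word Control before saline and before either dose; its meaning is not given there, and all groups carry it. Each region and dose had 2 arrays of opposite dye, which were counted as 1 replicate because nothing in the labels says that they hold different RNA. Both doses were compared with the same saline group in each region, so the ratios of the doses share their control. The labels do not say whether RNA of several rats was pooled, and p-values of the dose comparisons measure the spread between the 6 regions, which come from the same set of rats.

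GABA-A receptors are chloride channels built from 5 subunits drawn from several families. Receptors with alpha2 or alpha3 subunits mostly sit at synapses, whereas delta subunits pair with alpha4 in the forebrain and with alpha6 in cerebellar granule cells, in receptors outside the synapse that carry a steady, tonic inhibition. Alpha5 receptors, also largely outside the synapse, are best known from hippocampal pyramidal cells, and beta subunits complete the GABA binding site with an alpha subunit.

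The 8 probes show which transcript stretch each value rests on and how far the probes of related subunits could share target. Per the array files, which place them on the rat rn3 build, 3 lie on chromosome 14 within 1132 kb of each other (Gabrb1 at chr14:38532824-38532883, minus strand, Gabra4 at chr14:39124766-39124825, plus strand, and Gabra2 at chr14:39664187-39665243, plus strand), and 2 on chromosome 10 within 345 kb (Gabra6 at chr10:27475121-27475180, minus strand, and Gabrb2 at chr10:27820323-27820382, plus strand). Gabra5 was at chr1:108922532-108922591, minus strand, Gabrd at chr5:172213695-172213755, minus strand, and Gabra3 at chrX:158490096-158495925, minus strand. The coordinates of the Gabra2 and Gabra3 probes span 1057 and 5830 bases, longer than the 60 bases of a probe. Exons and untranslated regions are not stated, since no annotation of that build was used here. Of the 28 pairs of probes, laid over each other without gaps, Gabra2 with Gabra3 matched at 33 of 54 overlapping bases and Gabra4 with Gabra6 at 31 of 57; the other 26 pairs matched at 17 to 24 bases. In these 2 pairs the longest run of matching bases was 6. Both pairs are printed whole, with capitals at the matching bases:

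Gabra2: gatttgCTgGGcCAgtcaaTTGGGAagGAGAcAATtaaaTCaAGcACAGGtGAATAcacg

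Gabra3: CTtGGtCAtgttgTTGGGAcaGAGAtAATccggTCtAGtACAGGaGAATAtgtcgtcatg

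Gabra4: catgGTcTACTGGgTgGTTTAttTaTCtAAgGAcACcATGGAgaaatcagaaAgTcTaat

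Gabra6: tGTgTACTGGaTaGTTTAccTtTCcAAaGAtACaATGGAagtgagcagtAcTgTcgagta

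For Gabrd, the subunit with the widest range between regions, and for the remaining members, the first 30 bases of the probe are given.

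Gabrd: attagttggcctgtccctgaagctgagcct

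Gabra5: aaataagtcaacaaatgcttttacaactgg

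Gabrb1: caaggtaccagctctgtaagagttccatca

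Gabrb2: ggcctatcctgtggtccatttcataacatt

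Between 56.3% and 79.1% of spots per array were well above background in both channels, and at most 8 spots were saturated. Across features, the log2 ratios of the 2 arrays of a pair, both turned to treated over saline, correlated between -0.47 and -0.09. A difference between the dyes that is equal on both arrays cancels in their mean. Region markers checked the labelled tissue: against the remaining 5 regions, the median log2 difference was 3.91 for striatal projection neuron genes in the ventral striatum (16 of 16 higher), 1.92 for midbrain genes in the midbrain (10 of 10), 0.92 for cortex genes in the cerebral cortex (9 of 11) and 0.89 for hippocampus genes in the hippocampus (7 of 10). Hypothalamus markers were 0.15 higher in the hypothalamus (7 of 12), where all 10 thalamus markers were also higher, by a median of 1.65. Amygdala markers were not higher in the amygdala (median -0.28, 4 of 9), and choroid plexus markers (6 of 6) and meningeal markers (8 of 8) were higher there.

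Levels are log2 intensities of the saline channel, given as mean ± SD over the 4 arrays of a region, which repeat the same saline group. They are compared between regions for 1 probe and never between probes. Region differences come from a limma fit over 18 RNAs, the saline, low-dose and high-dose RNA of each region, with treatment as a term. They are therefore not differences of saline levels alone. Their p-values measure the spread left between these RNAs after region and treatment. Saline and treated RNA of a region shared arrays and a slide, so spread between slides is not in these p-values. All regions come from the same set of rats. Each region was compared with the mean of the other 5. Of the 42 such contrasts of the 7 tested members, 35 had an adjusted p below 0.05, 17 with the region higher and 18 with it lower. Over all 24760 features the share was 51.5%, with 25.1% higher and 26.5% lower, so calls between regions were common. By region, the number of the 7 members called and the share of all features were 5 and 49% in the cerebral cortex, 7 and 57.7% in the hippocampus, 6 and 49.3% in the amygdala, 6 and 46.6% in the ventral striatum, 6 and 50.9% in the midbrain, and 5 and 55.7% in the hypothalamus. Each region was hybridised on a slide of its own, so region and slide cannot be told apart. In dissected tissue, fewer cells of a type and less RNA per cell cannot be told apart either.

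Gabrd, the delta subunit, had the widest range. Its saline level was 13.84 ± 0.12 in the hypothalamus, with arrays at 13.73, 13.84, 14.01 and 13.78, and 9.94 ± 0.12 in the midbrain, with arrays at 10.08, 10.02, 9.84 and 9.84. These 2 sets of arrays lay at opposite ends, with no overlap with any other region. Between them came the ventral striatum at 12.83 ± 0.17, the cerebral cortex at 12.50 ± 0.16, the amygdala at 11.55 ± 0.21 and the hippocampus at 11.44 ± 0.50. In the limma fit over saline and treated RNA, the hypothalamus exceeded the mean of the other 5 regions by 2.35 (SE 0.11, 5.10-fold, adjusted p = 2.08e-10). The midbrain was 7.85-fold lower in that fit (log2 difference -2.97, adjusted p = 1.54e-11). This midbrain contrast is not one of saline levels alone, since it also counts treated midbrain RNA. Gabrd there was at 9.94 in saline, 9.09 in low-dose and 9.47 in high-dose RNA. Neighbours in this order that did not pass the test were the ventral striatum and cerebral cortex (adjusted p = 0.141) and the amygdala and hippocampus (adjusted p = 0.747). Beside the hypothalamic level stands that of the thalamus markers named above; its part in the Gabrd level was not tested.

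Gabra4, the usual partner of delta in the forebrain, was highest in the ventral striatum. There the 4 arrays read 11.61, 10.96, 10.81 and 10.80 (mean 11.05 ± 0.38), above every array of the other regions. The hypothalamus followed at 10.40 ± 0.18, then the cerebral cortex at 10.10 ± 0.15, the amygdala at 9.76 ± 0.19, the hippocampus at 9.04 ± 0.45 and the midbrain at 8.98 ± 0.13. The ventral striatum stood 1.38 above the mean of the other 5 regions (SE 0.12, 2.61-fold, adjusted p = 2.42e-07). The midbrain was the lowest in this fit (log2 difference -1.43, 2.69-fold, adjusted p = 1.35e-07), which also counts treated midbrain RNA. Gabra4 there was at 8.98 in saline, 8.27 in low-dose and 8.62 in high-dose RNA. In the saline channel, arrays of the hippocampus and midbrain overlapped, with means 0.06 apart. The midbrain thus had the lowest saline mean for both Gabrd and Gabra4, for Gabra4 without standing apart from the hippocampus, while their highest regions differed. Over the 6 regions the saline profiles of these 2 genes had a Pearson r of 0.82, as a description of 6 points that share slides.

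Gabra6, the alpha subunit of cerebellar granule cells, was near background in these regions, none of which is the cerebellum. In the saline channel it was well above background on 3 of 4 arrays of the cerebral cortex and on no array of the other 5 regions. Its mean log2 intensity ran from 6.12 in the hypothalamus to 6.45 in the cerebral cortex, with overlapping arrays, next to array floors of 6.05 to 6.95, the dimmest signal well above background on each array. It did not pass the filter, and its ratios are not tested below.

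Gabra5, the subunit of tonic inhibition in hippocampal pyramidal cells, was high in the cerebral cortex and hippocampus and low in the hypothalamus. The cortical arrays ran from 10.14 to 10.44 (mean 10.32 ± 0.13) and the hippocampal arrays from 9.28 to 10.77 (mean 10.25 ± 0.67). Both overlapped and did not pass the test between them (adjusted p = 0.537). The amygdala followed at 9.59 ± 0.18, the midbrain at 8.84 ± 0.15, the ventral striatum at 8.80 ± 0.26 and the hypothalamus at 8.30 ± 0.04. The cerebral cortex stood 1.22 above the other 5 regions (SE 0.11, adjusted p = 4.40e-07) and the hippocampus 1.09 (SE 0.11, adjusted p = 9.96e-07). The hypothalamus was the lowest, with a log2 difference of -1.27 (2.41-fold, adjusted p = 1.58e-07).

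Gabra2 and Gabra3, alpha subunits of synaptic receptors, were both high in the amygdala and differed in the hippocampus. Gabra2 was highest in the amygdala (10.11 ± 0.33) and hippocampus (10.07 ± 0.21), which did not pass the test between them (adjusted p = 0.432), followed by the ventral striatum at 9.76 ± 0.11 on the 3 arrays with a usable spot. Its lowest level was 8.34 ± 0.30 in the hypothalamus, 2.30-fold below the mean of the other 5 regions (adjusted p = 1.03e-09). Gabra3 spanned less than 1 log2 unit, from 8.02 ± 0.16 in the cerebral cortex to 7.06 ± 0.32 in the hippocampus. Its level in the amygdala was 7.81 ± 0.12, with arrays that overlapped those of the cortex. In the limma fit, cortex and amygdala did not pass the test between them (adjusted p = 0.0818). The amygdala stood 0.39 above the other 5 regions (SE 0.07, adjusted p = 0.000313). The cerebral cortex stood 0.64 above the other 5 regions (SE 0.07, adjusted p = 3.49e-06) and the hippocampus was the lowest (log2 difference -0.52, adjusted p = 1.90e-05). In the hippocampus, Gabra2 was thus among the highest regions and Gabra3 at its lowest.

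The beta subunits also separated. Gabrb1 was highest in the hippocampus, where the arrays read 12.95, 13.26, 12.94 and 13.16 (mean 13.08 ± 0.16), above every array of the other regions. The log2 difference of the hippocampus from the other 5 was 1.40 (SE 0.15, 2.63-fold, adjusted p = 1.40e-06). The amygdala followed at 12.41 ± 0.35, and the 4 remaining regions lay between 11.35 and 11.82 with overlapping arrays. Gabrb2 was highest in the cerebral cortex at 7.81 ± 0.23 and ran from 6.88 to 7.31 elsewhere. The cerebral cortex stood 0.78 above the other 5 regions (SE 0.07, 1.71-fold, adjusted p = 2.47e-07), and each pair of neighbours in the order below it overlapped. Its order below the cortex depended on the scaling of the signals, as given in the closing section.

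**Figure D1:**
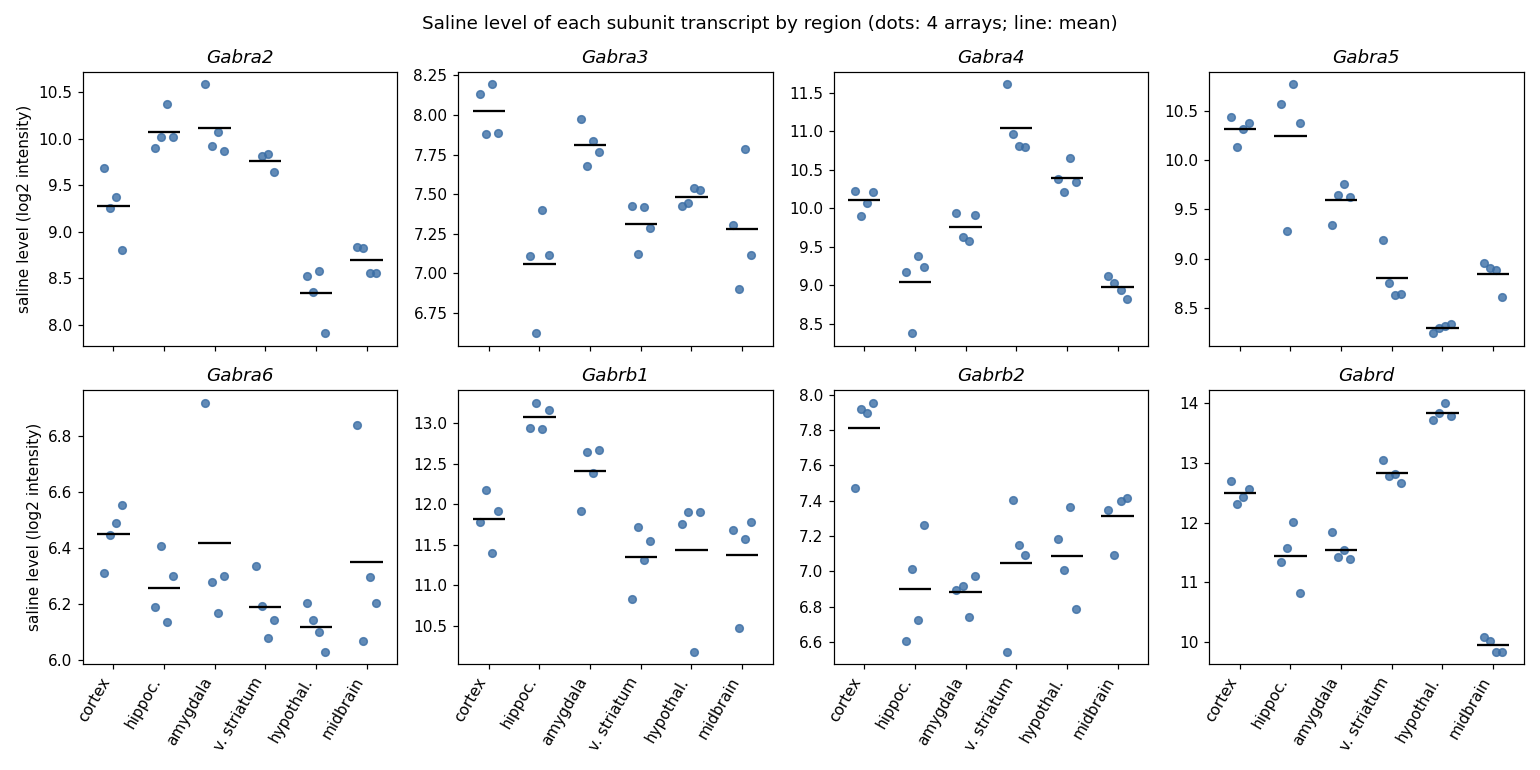
Saline level (log2 intensity) of each subunit transcript in 6 regions, with 1 panel and 1 scale per gene; dots are the 4 arrays of a region and lines their means. Gabrd runs from 9.94 in the midbrain to 13.84 in the hypothalamus, and the region means of Gabra6 lie between 6.12 and 6.45, with single arrays from 6.03 to 6.92.

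The genes on chromosome 14 did not share 1 profile. Over the 6 regions, Gabra2 and Gabrb1 had a Pearson r of 0.71, Gabra2 and Gabra4 of -0.06, and Gabra4 and Gabrb1 of -0.53. For the 5 members well above background on all 24 arrays, the 2 genes with the nearest saline profile among 9781 candidates were found by Euclidean distance. Dbp, a clock-controlled transcription factor, was nearest to Gabra4 (distance 0.41, r = 0.98) under the main scaling and under each of 3 others. Pdp1, a pyruvate dehydrogenase phosphatase, and Fstl4 were nearest to Gabrd (distances 1.16 and 1.38), both within the nearest 3 under each scaling. Nearest to Gabra5 and Gabrb1 were Adcy2 and Rimbp2 (both 0.50) and Gpc4 and Palmd (0.39 and 0.43), respectively, and Rgs2 was second for Gabra4 (0.77). Of these, none but Rimbp2 kept a place among the nearest 2 when processed signals were scaled to the 75th percentile. With a background offset of 16, Adcy2, Gpc4 and Rgs2 ranked 5, 7 and 3, and with quantile scaling Rgs2 ranked 3.

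Regions scanned on the same day gave 3 contrasts free of scan day. On the first day, Gabra4 was 0.85 lower in the cerebral cortex than in the ventral striatum (log2 difference -0.85, adjusted p = 0.000517) and Gabra5 1.62 higher (adjusted p = 3.38e-07). On the second day, the amygdala exceeded the midbrain by 2.05 for Gabrd (adjusted p = 2.17e-08) and by 1.09 for Gabra4 (adjusted p = 3.95e-05). Both of these count treated midbrain RNA, which lay below saline for the 2 genes. On the third day, the hippocampus exceeded the hypothalamus by 1.67 for Gabrb1 (adjusted p = 3.91e-06) and lay below it for Gabrd (log2 difference -2.45, adjusted p = 2.69e-09).

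**Figure D2:**
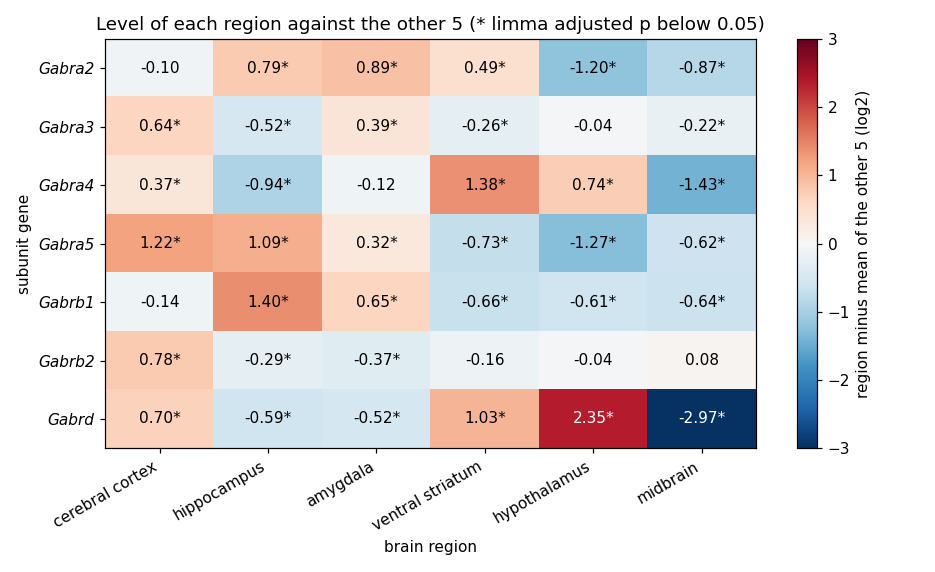
Log2 difference between each region and the mean of the other 5 for the 7 tested subunit genes, from the limma fit over 18 RNAs; colour and number give the difference and an asterisk an adjusted p below 0.05. Of 42 contrasts 35 carry an asterisk, from -2.97 for Gabrd in the midbrain to 2.35 for Gabrd in the hypothalamus.

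After MK-801, none of the 7 tested members passed the test across regions at either dose. Ratios are log2 treated over saline, the mean of the 2 arrays of a region and dose, tested over regions with limma. At the high dose, 0 of 7 members had an adjusted p below 0.05, where 2.04% of 24686 features did; 1 of 7 members had an unadjusted p below 0.05, near the 11.7% of all features that did. At the low dose, 0 of 7 members passed, where 2.44% of 24984 features did, and no member had an unadjusted p below 0.05, where 13.0% of all features did. The members had a median ratio of -0.02 (high dose) and -0.04 (low dose), beside -0.000523 and 0.0019 over all features tested.

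Gabra5, the member with the unadjusted p below 0.05, did not pass after adjustment at either dose. Its mean over regions was -0.09 at the high dose (SE 0.03, 95% interval -0.15 to -0.02, adjusted p = 0.209), below 0 in 5 of 6 regions. At the low dose it was -0.06 (SE 0.03, 95% interval -0.13 to 0.00500, adjusted p = 0.430), again below 0 in 5 of 6 regions. Single regions ran from -0.15 to 0.03 and from -0.19 to 0.06 respectively.

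For the synaptic alpha subunits the intervals were narrow around 0. Gabra2 had a mean of -0.04 at both doses (SE 0.03 at each; 95% intervals -0.11 to 0.03 and -0.11 to 0.04); in the ventral striatum at the high dose 1 array carried an outlier spot, so that this value rests on 5 regions. Gabra3 had means of -0.00274 (high dose) and 0.03 (low dose), with 95% intervals of -0.06 to 0.05 and -0.03 to 0.10. The beta subunits were close to 0 as well, with -0.02 and -0.04 for Gabrb1 and -0.00962 and -0.02 for Gabrb2 at the high and low dose, and the 95% intervals of these 4 values lay between -0.10 and 0.06.

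These probes also carried a dye effect. Gabrb1 gave a higher ratio with treated RNA in Cy5 in 12 of 12 pairs of arrays, and the 2 arrays had opposite signs in 10 of them. Gabra3 had opposite signs in 12 of 12 pairs and Gabra2 in 10 of 11. For Gabra4 and Gabrd, opposite signs occurred in 4 and 5 of 12 pairs.

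**Figure D3:**
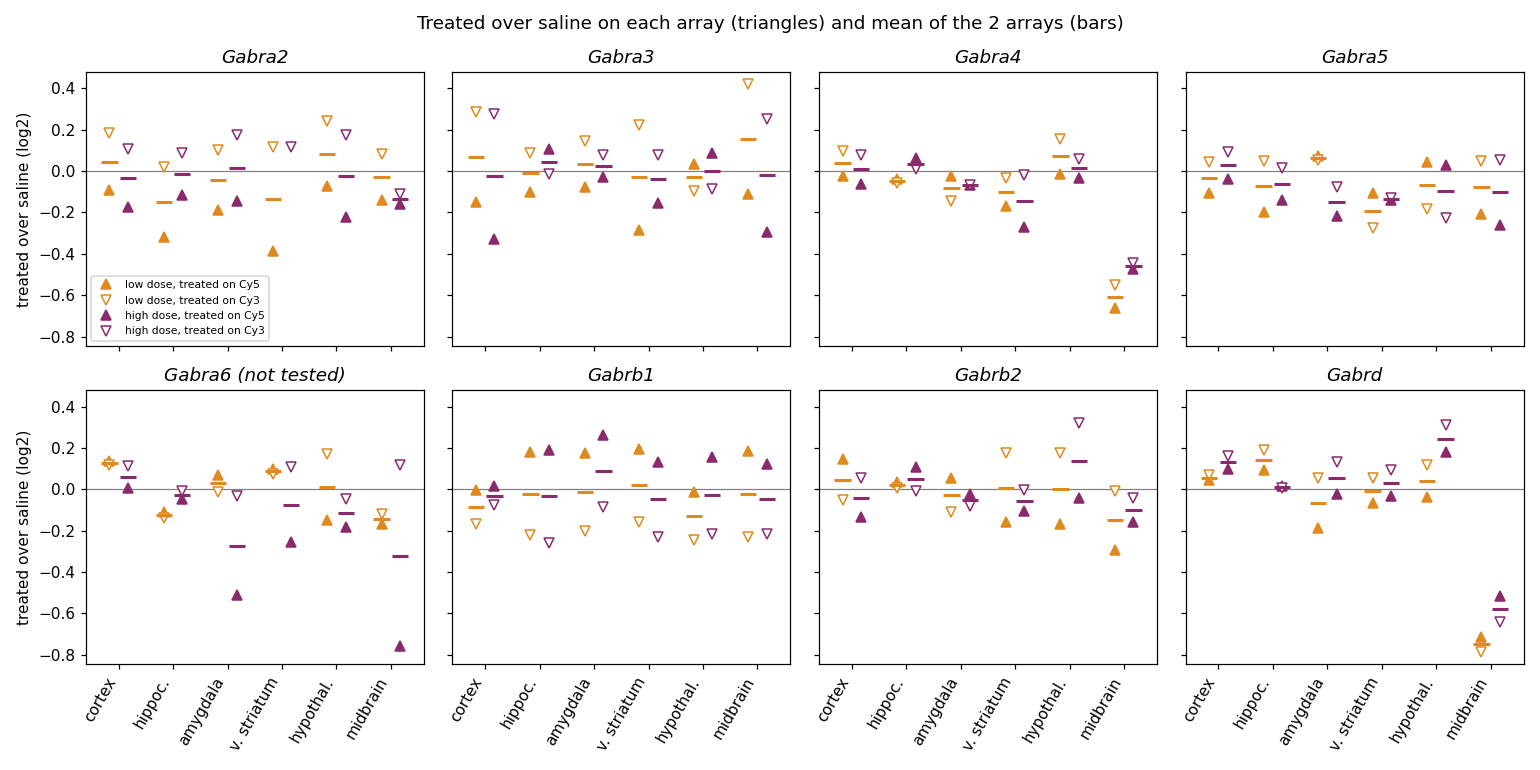
Log2 ratio of treated over saline on each array for the 8 subunit genes in 6 regions, with orange for the low and purple for the high dose; upward filled triangles are arrays with treated RNA in Cy5, downward open triangles arrays with treated RNA in Cy3, and bars the mean of both. Gabrd and Gabra4 lie between -0.78 and -0.44 on all midbrain arrays, and the Gabrb1 triangles split by dye.

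In the midbrain, Gabrd and Gabra4 were lower in treated than in saline RNA on every array. For Gabrd the 2 high-dose arrays read -0.52 and -0.64 (mean -0.58, SD 0.09) and the 2 low-dose arrays -0.71 and -0.78 (mean -0.75, SD 0.05). For Gabra4 they read -0.48 and -0.44 (mean -0.46, SD 0.02) and -0.66 and -0.55 (mean -0.61, SD 0.08). After the high dose the level was 66.9% of saline for Gabrd and 72.7% for Gabra4, and after the low dose 59.5% and 65.7%. The 2 dyes gave like values, and the arrays of the low dose lay below those of the high dose for both genes.

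With 1 pair of arrays per region and dose there is no test of a single region. A size of 1.2-fold on both arrays, chosen after these values were seen, was reached downward in the midbrain by 0.352% of 24456 features (high dose) and 0.477% of 24085 (low dose), Gabrd and Gabra4 among them and no other of the 7 measured members. Both doses together, whose ratios share the saline RNA, gave 0.131% of 22857 features, again with 2 of 7 members. At the low dose 17 of 24085 features had a lower ratio than Gabrd and 29 a lower one than Gabra4; at the high dose 55 and 119 of 24456 did. No member reached this size on both arrays in any of the other 5 regions, in either direction, where 0.77% of all feature, region and dose combinations did. Among the 5 other measured members, midbrain ratios ran from -0.15 to 0.15.

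Outside the midbrain, Gabrd lay between 0.01 and 0.25 after the high dose and between -0.07 and 0.14 after the low dose. The highest of these was the hypothalamus at the high dose, with arrays at 0.18 and 0.31. Gabra4 ran from -0.15 to 0.04 and from -0.10 to 0.07 there, lowest in the ventral striatum at both doses. Over all 6 regions, the high-dose mean of Gabrd was -0.02 (SE 0.08, 95% interval -0.19 to 0.16, adjusted p = 0.964) and its low-dose mean -0.10 (SE 0.09, 95% interval -0.29 to 0.10, adjusted p = 0.718). Without the midbrain its means were 0.09 (adjusted p = 0.338) and 0.03 (adjusted p = 0.777). Gabra4 had means of -0.10 (SE 0.05, 95% interval -0.22 to 0.02, adjusted p = 0.521) and -0.12 (SE 0.07, 95% interval -0.27 to 0.03, adjusted p = 0.509).

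**Figure D4:**
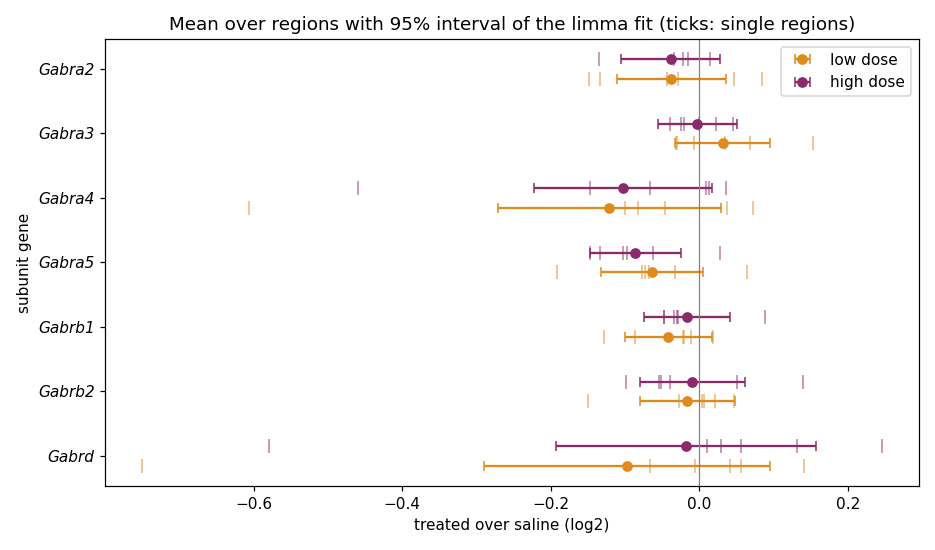
Mean log2 ratio of treated over saline over regions for the 7 tested subunit genes, as dots with the 95% interval of the limma fit, orange for the low and purple for the high dose; ticks are single regions. The midbrain ticks of Gabrd (-0.58 and -0.75) and Gabra4 (-0.46 and -0.61) stand far to the left of their other regions.

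Marker genes also differed from saline in the same midbrain samples. Of 10 thalamus markers on the array, 8 were measured at both doses; after the high dose 7 of 8 lay below saline (median -0.21), after the low dose 8 of 8 (median -0.17). Prkcd, a kinase gene enriched in thalamic relay nuclei and also in the amygdala list, was at -0.89 and -1.17. The summed thalamus level, as log2 of the summed intensity, was 14.38 to 14.45 on the 4 saline arrays, 14.05 to 14.06 on the low-dose and 13.96 to 13.98 on the high-dose arrays. These ranges did not overlap, but Slc17a6, a vesicular glutamate transporter that was itself 3.12 higher in the saline midbrain than in the other regions, and Prkcd made up 94.2% of the saline sum. Without these 2 genes, the remaining 6 summed to 10.16 to 10.47 in saline, 10.03 to 10.06 at the low dose and 9.98 to 10.23 at the high dose, so that the low dose alone lay apart from saline. Among the 10 markers, 1 was not well above background on any saline array of the midbrain.

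The summed level of the 9 measured midbrain markers overlapped between groups (16.42 to 16.67 in saline, 16.56 to 16.60 and 16.53 to 16.71 after the low and high dose), although Tph2, the enzyme of serotonin synthesis, was at 0.77 and 1.42 after the high and low dose. Ddc and Th made up 87.9% of that saline sum. Without these 2 genes, the remaining 7 summed to 13.32 to 13.63 in saline. They summed to 13.68 to 13.71 at the low dose, above every saline array, and to 13.62 to 13.73 at the high dose, which overlapped with saline. Meningeal markers summed to 16.03 to 16.19 in saline, 15.99 on average at the low dose and 16.69 to 16.71 at the high dose. Both low-dose arrays lay below and both high-dose arrays above every saline array. Blood cell markers lay likewise (11.07 to 11.37 in saline, 10.74 to 10.86 and 11.42 to 11.60 after the low and high dose), and overlapped without Alas2 and Hbb, the brightest of them. Oligodendrocyte markers summed to 18.28 to 18.48 in saline, 18.51 to 18.53 at the low dose and 18.48 to 18.58 at the high dose. Cerebellar markers overlapped between groups (14.42 to 14.64, 14.39 to 14.53 and 14.39 to 14.45 in saline, low-dose and high-dose RNA). Of all 16 marker lists, 5 lay below and 1 above every saline array at the low dose, and 2 below and 2 above at the high dose. Beside those named, these were amygdala markers at the low dose (14.75 to 14.80, against 14.93 to 15.20 in saline; Prkcd is among them), astrocyte markers at the low dose (14.92 to 14.97, against 14.98 to 15.12) and cortex markers at the high dose (11.16 to 11.26, against 11.32 to 11.60). The part of any of these in the Gabrd and Gabra4 ratios was not tested.

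**Figure D5:**
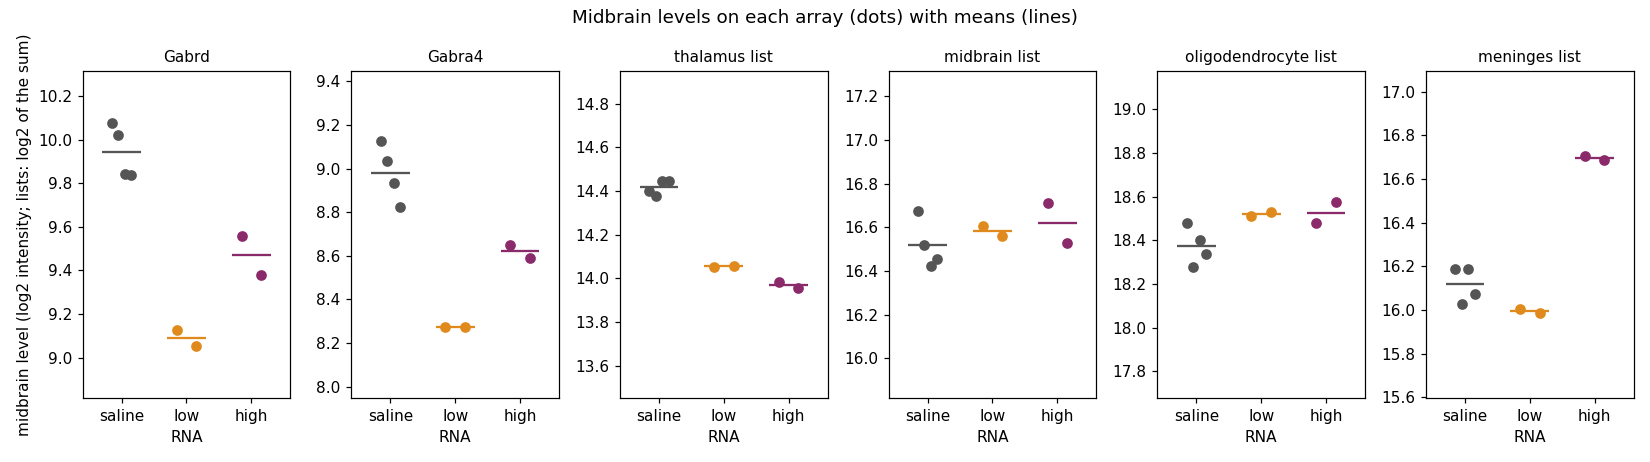
Midbrain level (log2 intensity) of Gabrd and Gabra4 and log2 of the summed intensity of 4 marker lists on each array, in saline (4 arrays), low-dose and high-dose RNA (2 arrays each); lines are means, and each panel spans the same number of log2 units. Gabrd, Gabra4 and the thalamus list are lower in both treated groups, and the meningeal list is lower at the low dose and higher at the high dose.

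Between the doses, none of the 7 members differed across regions (0 of 7 by limma, where 1.52% of 23238 features were called, and no member at an unadjusted p below 0.05, where 10.9% of features lay). The high minus low difference was 0.08 for Gabrd (SE 0.04, 95% interval -0.01 to 0.17, adjusted p = 0.534), above 0 in 5 of 6 regions. For the other 6 members it lay between -0.03 and 0.03.

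The rest of the GABA system was read from 5 gene lists. Of the GABA-A receptor subunits outside the 8 members, 7 (high dose) and 8 (low dose) were tested and none passed by limma (3 and 1 at an unadjusted p below 0.05, a count to be read in this and the following lists beside 11.7% and 13.0% of all features). Their means over regions ran from -0.09 to -0.01 and from -0.10 to 0.03. In the midbrain alone, 8 of 9 measured subunits of this list lay below 0 at the high dose, with ratios from -0.60 to 0.19. Their median was -0.08, beside -0.000970 over all features measured there. At the low dose 4 of 8 lay below 0, with ratios from -0.09 to 0.10. None reached 1.2-fold downward on both arrays there. None of the 17 tested scaffold and trafficking genes passed at either dose (1 and 1 unadjusted), with medians of -0.02 and -0.00400. The same held for the 7 chloride transport genes (2 and 0 unadjusted; medians 0.03 and 0.02) and the 5 GABA-B receptor genes (0 and 1 unadjusted; medians -0.03 and 0.00276).

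Of the genes of GABA synthesis, transport and breakdown, none of 8 passed after the high dose (1 unadjusted by limma), and 1 of 7 fell after the low dose. This was Slc6a13, a GABA transporter found at the meninges and vessels, with a mean of -0.31 (SE 0.06, adjusted p = 0.0175), below 0 in 6 of 6 regions. Its regional values ran from -0.64 in the cerebral cortex to -0.10 in the hypothalamus. At the high dose the mean was -0.18 (SE 0.08, adjusted p = 0.448), with 0.42 in the midbrain and values between -0.44 and -0.20 elsewhere. Meningeal markers had low-dose medians of -1.02 in the cerebral cortex (8 of 8 below 0), -0.61 in the hippocampus (7 of 7) and -0.21 in the midbrain (8 of 8), and of -0.05, 0.05 and 0.11 in the amygdala, ventral striatum and hypothalamus; their part in the Slc6a13 value was not tested. The call was lost without the hippocampus (-0.27, adjusted p = 0.0729), with the scanner software's processed signals (-0.40, adjusted p = 0.151), with the deposited table (-0.40, adjusted p = 0.157), and within the first and second scan day (-0.38 and -0.26, adjusted p = 0.320 and 0.317), each of which holds 2 regions.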

How the data were processed

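RNA was extracted with silica columns, amplified linearly and hybridised to 24 two-colour Agilent arrays, per the labels. Agilent Feature Extraction 9.5.3.1 gave the deposited intensity values (mean, local background and processed signals), per the file headers; the deposited log10 table equals its processed treated over saline ratios (100% within 0.01). The direction comes from the dyes in the labels.

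Mean intensity was corrected with normexp (offset 50) and loess in limma 3.58.1 under R 4.3.3. Outlier spots were left out. A gene was read by its brightest probe and tested if well above background on both arrays of at least 3 regions. Adjusted p-values are Benjamini-Hochberg over all features tested, at 0.05. Levels were scaled with Aquantile. Fits were tested on simulated data. Other normalisations, filters, probe rules, scan days, single dyes and omitted regions were tried. Names follow RefSeq (GRCr8). Of the genes in 5 pathway lists, those past the threshold are named; the 2 nearest saline profiles per member are named, except those of Gabra2, which are not reported here. The members and the lists, with 16 marker lists, were chosen with earlier results of these data known. The midbrain values of Gabrd and Gabra4, the 1.2-fold size, the same-day contrasts and the marker sums without the 2 brightest genes were singled out after the values were seen.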

Additional observations from a re-analysis of the deposited data

Results flagged for a closer look

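Over the 6 regions of a dose, the midbrain value stood apart from the others for Gabrd (-0.58 after the high dose, -0.75 after the low dose) and for Gabra4 (-0.46 and -0.61). All 4 midbrain arrays of Gabrd were below 0 (mean -0.66), while all 4 arrays were above 0 in the cerebral cortex (mean 0.0934) and the hippocampus (mean 0.0758); this difference between regions was not tested.

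For Gabrb1 at the high dose the amygdala stood apart at 0.0886, and for the high minus low difference of Gabra5 the amygdala stood apart at -0.21. Among the 4 saline arrays of a region, 1 array was far from the others for Gabrb1 in the hypothalamus (10.18), for Gabrb1 in the midbrain (10.47) and for Gabrb2 in the cerebral cortex (7.47). These are 9 of 69 sets of values looked at, where chance gives about 5%; sets of the 2 doses share saline RNA.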

How the results depend on the processing

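With arrays of 1 dye alone, which keep the dye effect, 1 to 3 of 7 members were called at the high dose (6702 of 24777 and 7662 of 24795 features) and 2 to 3 at the low dose (7452 of 25090 and 8467 of 25063 features), so calls were common among all features; the other settings gave 0 calls of members in each dose comparison. Without replicate 1 or 2 of each pair, Gabrb1 ran from -0.18 to 0.15 at the high and from -0.20 to 0.12 at the low dose, and Gabra2 from -0.20 to 0.13 at the low dose. With processed signals or the deposited table, the midbrain means were -0.85 and -0.85 for Gabrd at the low dose, and for Gabra4 -0.57 and -0.56 at the high and -0.74 and -0.73 at the low dose; at the high dose Gabra4 was -0.50 with an offset of 16 and -0.49 with median centring. Gabrb2 in the hypothalamus went from -0.04 to 0.55 (adjusted p = 0.000296) with processed signals scaled to the 75th percentile; the cause was not tested. Of the level contrasts of single members, 338 stayed on their side of the threshold with the same direction, 22 lost and 5 gained a call. A further 1 reversed, being called with the sign opposite to the main value, as given for Gabrb2 in the hypothalamus. A further 54 values of single genes changed sign without a call on either side. Ratios set treated against saline RNA on the same array, and the high minus low difference was taken within each region. No analysis paired by rat was possible because the labels give no replicate numbers and each region and dose is 1 pair of arrays. Probes near background, Gabra6 above all, and Gabrb2 and Gabra3 in part, limit what can be seen.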
